A study of Mus musculus with 4 samples.

Results

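The strong shared regions are the autosomal sites that all 4 DNase-seq libraries of the study listed with high enrichment. Peaks from the 4 deposited lists that shared 1 bp or more were joined into 1 region. A joined region was kept when every list held a peak in it and the strongest peak of each list had a fold enrichment of at least 10. Fold enrichment is the pileup of sequenced fragments at the peak's highest point, the summit, over the local background. The rule kept 333 regions, which is 4.19% of the 7949 autosomal regions found in all 4 lists and 0.874% of all 38110 autosomal regions. The regions were chosen by the peak calls and the fold values of all 4 libraries, so both are given below as a description and were not tested.

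The cells were CD8+ T cells from mouse spleen, sorted as naive cells by high CD62L and low to medium CD44, and then stimulated in culture for 72 h with IL-7 and IL-15; all 4 samples are labelled as stimulated. Wild-type cells (WT) gave 2 libraries, and cells with both Tcf1 and Lef1 deleted (DKO) gave the other 2. All mice carried hCD2-Cre, a recombinase driven by human CD2 sequences that are active in lymphocytes, and a Rosa26 reporter that turns GFP on where Cre has acted. In the DKO mice both Tcf1 and Lef1 were floxed, and GFP+ TCRbeta+ cells were sorted for every library. Neither the age of the mice nor whether each replicate was a separate animal is stated in the labels, so p-values measure only the spread between these libraries, which may be technical. Values for the libraries are given in the order WT replicate 1, WT replicate 2, DKO replicate 1 and DKO replicate 2.

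DNase I cuts DNA where nucleosomes are displaced, so a cluster of cuts marks a promoter, enhancer or insulator that proteins hold open. Sites open in most cell types are often promoters of widely used genes and binding sites of CTCF, a zinc finger protein that anchors chromatin loops. Tcf1 and Lef1, which T cells need for their development, belong to one family of proteins that bind the minor groove and bend DNA. Very high DNase-seq signal also arises where many copies of a repeat, such as the satellite DNA beside the centromere, are collapsed onto few positions of the assembly. Mouse chromosomes carry the centromere at one end, so such positions often lie near the start of an assembled chromosome.

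The lists differed in how much of them lay above the fold minimum. Folds of at least 10 were reached by 1749 autosomal peaks of WT replicate 1 and 566 of WT replicate 2. They were reached by 12735 autosomal peaks of DKO replicate 1 and 4766 of DKO replicate 2. The strong shared regions took up 58.8% of these peaks in WT replicate 2 and 19.0% in WT replicate 1, but 2.61% and 7.01% in DKO replicates 1 and 2. The sequencing depth is unknown here. The lowest local background, which grows with the number of reads and the fragment length, was 1.50 and 1.47 fragments in the WT libraries, and 1.23 and 1.15 in the DKO libraries. Peaks on chromosome Y numbered 55 and 57 in the DKO lists and 0 in both WT lists, so chromosome Y calls move with genotype in these 4 libraries. The regions described here are autosomal and hold none of these peaks. What lies behind the chromosome Y difference cannot be told apart from genotype in any difference below.

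Membership was set mainly by the WT lists. The lowest of the 4 folds lay in WT replicate 2 for 217 regions and in WT replicate 1 for 91. It lay in DKO replicate 2 for 19 and in DKO replicate 1 for 6. WT replicate 2 alone fell short of a fold of 10 at 766 further regions, against 130 for WT replicate 1, 25 for DKO replicate 2 and 2 for DKO replicate 1. Without WT replicate 2 the rule kept 1316 regions. Within its list, the median strong shared region ranked among the top 2.28% and 2.22% of peaks in WT replicates 1 and 2, and the top 1.62% and 2.49% in DKO replicates 1 and 2. The weakest one stood within the top 5.18% of WT replicate 2 and the top 34.0% of DKO replicate 1. These limits largely follow from the fold minimum. Peaks with a fold of at least 10 made up 5.18% of WT replicate 2 and 37.3% of DKO replicate 1.

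Folds ran from just above the minimum to near 100, and most regions stood close to the minimum. The lowest of the 4 folds had a median of 10.9 over the 333 regions, with quartiles of 10.4 and 12.5. It lay between 10 and 12 in 241 regions, between 12 and 15 in 55, between 15 and 20 in 13, between 20 and 30 in 12 and at 30 or above in 12. The folds within WT replicate 1 had a median of 12.6 and ran from 10.001 to 90.9, and within WT replicate 2 a median of 11.3 and a range from 10.005 to 87.5. Within DKO replicate 1 the median was 20.9 and the range 10.5 to 101.1, and within DKO replicate 2 the median was 15.6 and the range 10.03 to 98.0. Folds are each list's own values. Taking the lowest of the 4 sets them side by side, but differences in fold between lists were not tested.

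**Figure D1:**
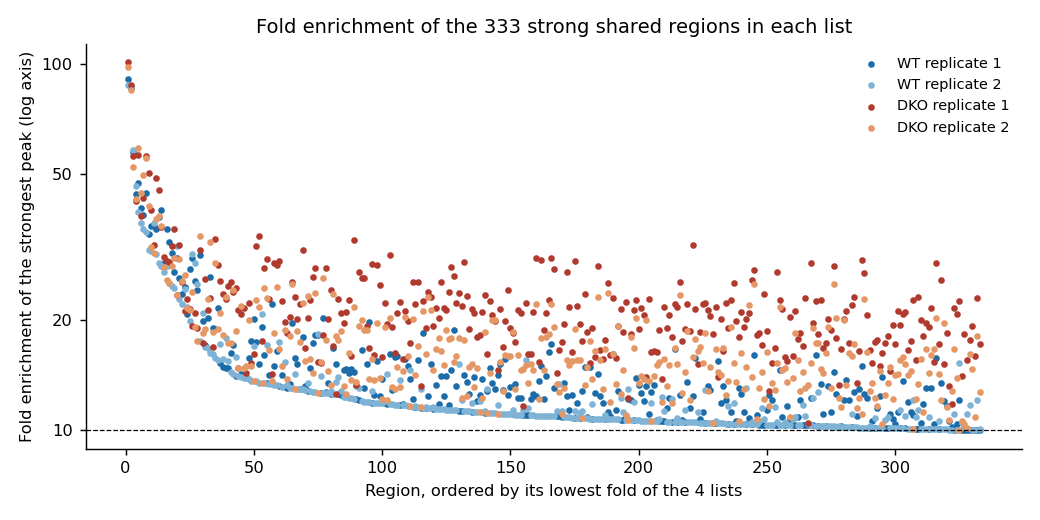
Fold enrichment (log axis) of the strongest peak of each of the 4 lists in the 333 strong shared regions, ordered along the x axis by the lowest of the 4 folds; each region has 4 points, and the dashed line marks the minimum of 10. The curve drops steeply over the first 24 regions, whose lowest fold is 20 or above, and 241 regions lie between 10 and 12.

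The regions nearest the threshold had like folds on both sides of it. Just inside were chr4:117852201-117852916 and chr17:86844205-86844555, with folds of 10.001 and 10.002 in WT replicate 1, and chr2:48804613-48805083 with 10.01 in both WT lists. Their folds in the DKO lists ran from 10.9 to 23.1. Just outside were chr4:129138501-129138972, chr10:114688435-114688810 and chr2:13679039-13679328, with folds of 9.9986, 9.99 and 9.98 in WT replicate 2. In the DKO lists these had folds of 10.2 to 18.5. Between 9 and 10 lay 399 regions, more than all those kept, so the threshold lay in a dense part of the range.

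The strong shared regions had nearly the same median width as other shared regions. Their median width was 319 bp, with quartiles of 242 and 388 bp and a range of 116 to 1086 bp. The 7616 regions found in all 4 lists below the fold minimum had a median of 320 bp. Nearly all strong shared regions were single peaks: 327 of 333 (98.2%) held exactly 1 peak of each list, against 94.4% of the others. The stretch covered by the strongest peak of all 4 lists had a median of 172 bp, and a median of 60.7% of the region's width. No strong shared region lacked such a common stretch, while 148 of the 7616 others did.

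Peaks in these regions were wider in both DKO libraries than in both WT libraries. The median peak width was 232 and 208 bp in WT replicates 1 and 2, and 272 and 242 bp in DKO replicates 1 and 2. The means were 257 ± 21.2 bp for DKO and 220 ± 17.0 bp for WT (SD, n = 2 each), a difference of 37 bp. The groups did not overlap, but with 2 against 2 libraries the exact permutation test (two-sided) cannot go below the p of 0.33 found here. The other shared regions had the same order, with medians of 217 and 190 bp in the WT libraries and 272 and 231 bp in the DKO libraries, so wider DKO peaks were seen there too. Over all peaks of each list the order was the opposite, with medians of 172, 175, 165 and 160 bp. With the fold minimum at 15 and 20 the difference turned to -7 and -19 bp. Of the 37 and 24 regions kept there, 14 and 11 are set apart below as possible repeat artefacts. Their part in the turn was not tested. Median pileup was 41 and 34 fragments in the WT libraries and 75 and 45 in the DKO libraries, and its part in the width was not tested. Median local background, which is solved from the fold and so described without a test, was 2.32, 2.08, 2.58 and 1.91 fragments, and the groups overlapped.

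The 5 widest regions included 1 of very high background. This, the widest of all, was chr2:98506401-98507486 with 1086 bp, called as 1 peak of 1083 to 1086 bp in each list. Next came chr4:117852201-117852916 with 716 bp and chr17:53828472-53829160 with 689 bp, then chr7:25184469-25185063 with 595 bp and chr14:68333659-68334247 with 589 bp. The folds of these 4 ran from 10.001 to 16.0 in the WT lists. The narrowest were chr2:181665092-181665207 with 116 bp, chr16:35981781-35981897 with 117 bp, chr13:44964938-44965055 with 118 bp, chr9:3032407-3032527 with 121 bp and chr2:181652125-181652246 with 122 bp. Lowest folds at these 5 ran from 12.7 to 24.9. Within the strong shared regions, narrow width and high fold went together. The median width was 331 bp in the regions with a lowest fold between 10 and 12, 286 bp between 12 and 15, and 282 bp between 15 and 20. It was 229 bp between 20 and 30, and 214 bp at 30 or above. Many of the regions of high fold are set apart below as possible repeat artefacts: 14 of the 37 at a fold minimum of 15, and 11 of the 24 at 20. Their part in this trend was not tested. Among regions not set apart, the median lowest fold was 12.7 under 200 bp and 10.7 at 200 bp and over. At the other shared regions it was 6.01 under 200 bp and 6.15 at 200 bp and over, so the relation was not seen there.

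Summits fell on nearly the same bases in all libraries. The rule did not use the summit position. Between WT replicates 1 and 2 the median distance of the summits was 8 bp, and between DKO replicates 1 and 2 it was 7 bp. Across genotypes the medians were 7 bp for WT replicate 1 with DKO replicate 1, 9 bp for WT replicate 1 with DKO replicate 2, 7 bp for WT replicate 2 with DKO replicate 1 and 8 bp for WT replicate 2 with DKO replicate 2. The 4 medians across genotypes, 7 to 9 bp, enclosed the 2 within genotypes; the difference between the 2 kinds of pair was not tested. Summits lay within 10 bp in 59.2% to 68.2% of the regions, depending on the pair, and more than 50 bp apart in 6.01% to 7.21%. The median signed distance was between -1 and 1 bp in every pair, so no library was shifted as a whole.

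Agreement was closer than at other shared regions. There the pair medians ran from 14 to 21 bp and the share within 10 bp from 30.3% to 40.7%. All 4 summits fell within 20 bp of each other in 218 of the 333 strong shared regions (65.5%), against 23.5% of the other regions. A summit is located more exactly where more fragments pile up, and the pileup was higher here: the medians were 41, 34, 75 and 45 fragments, against 24, 19, 44 and 26 at the other regions. The part of the pileup in this closer agreement was not tested.

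**Figure D2:**
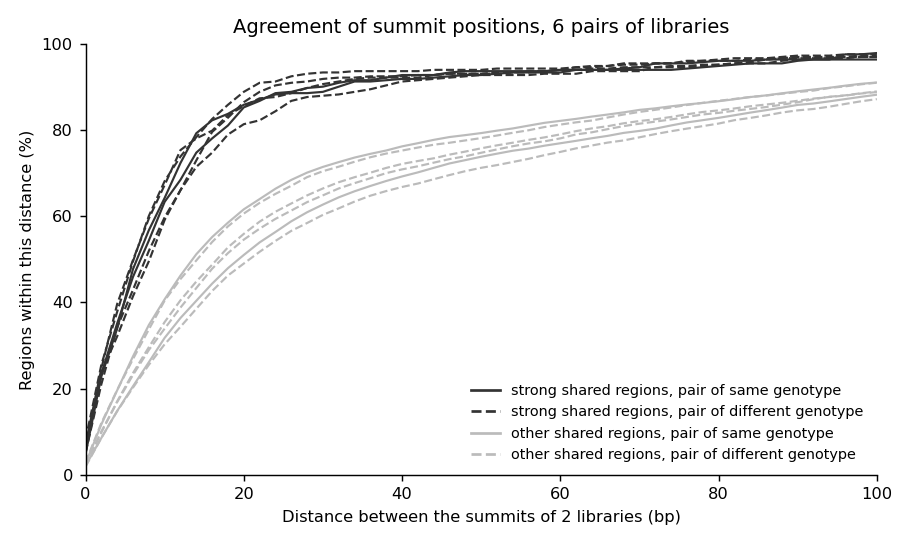
Cumulative share of regions (y axis, %) by the distance between the summits of 2 libraries (x axis, bp), 1 line for each of the 6 pairs; dark lines are the 333 strong shared regions, grey lines the 7616 other regions found in all 4 lists, solid lines pairs of one genotype and dashed lines pairs across genotypes. At 10 bp the dark lines stand between 59.2% and 68.2% and the grey lines between 30.3% and 40.7%, with solid and dashed lines mixed.

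In a minority of regions the summits lay far apart. The 4 summits spread over more than 100 bp in 22 regions. The widest spread, 497 bp, was at chr4:117852201-117852916, where the summit stood at 117852731, 117852779 and 117852774 in WT replicates 1 and 2 and DKO replicate 1, and at 117852282 in DKO replicate 2. At chr5:147072569-147072930 WT replicate 2 stood apart, with 147072628 against 147072868, 147072868 and 147072874 in WT replicate 1 and DKO replicates 1 and 2. The peak itself was nearly the same there in every list, 355 to 360 bp wide with folds of 22.1 to 25.6. At chr1:162125038-162125457 WT replicate 1 stood apart, at 162125320, while the other three lay between 162125106 and 162125119. In each of these 3 regions, named for the largest spread, it was a single library that differed, and not the 2 libraries of a genotype. Which libraries differed at the rest of the 22 regions is not given here. At the other extreme, all 4 summits lay on 1 base in 4 regions: chr6:103599106-103599286, chr8:20020287-20020586, chr9:3002046-3002188 and chr9:3023444-3023621. All of these but the one on chromosome 8 are set apart below as possible repeat artefacts.

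Possible repeat artefacts were set apart by a rule with 2 parts. A region was set apart when its fold lay in the top 0.1% of each list, or when its local background was at least 5 times the median of the list in all 4 lists. Background and pileup were solved from the deposited fold and p. The rule took 18 regions (5.41%), 8 by fold, 13 by background and 3 by both. Of the regions with a lowest fold between 10 and 12, 1 of 241 had the high background, against 3 of 55 between 12 and 15, 3 of 13 between 15 and 20, 3 of 12 between 20 and 30 and 3 of 12 at 30 or above. Background is computed from the fold, so these counts describe the set only.

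The 13 high-background regions carried pileups far above the rest, which in part comes with the rule. Pileup follows from the fold and the background, and these regions were chosen for high values of both. Their median pileup was 937 and 844 fragments in the WT libraries, and 1260 and 1129 in the DKO libraries. At the 315 regions not set apart it was 41, 34, 73 and 44 fragments in the same order. By default MACS2 lists no peak narrower than its fragment length. If only 1 read is kept per position and strand, a pileup then cannot pass 2 times the narrowest peak, which is 186, 194, 170 and 172 fragments. All 13 passed this bound in every list, and none of the other 320 did so in every list. In at least 1 list 21 strong shared regions passed it, among them 3 of the 5 set apart by fold alone. Of the 7616 other shared regions, 4 passed it in every list and 10 had the high background in every list. The setting for duplicate reads is not given in the sources used here.

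**Figure D3:**
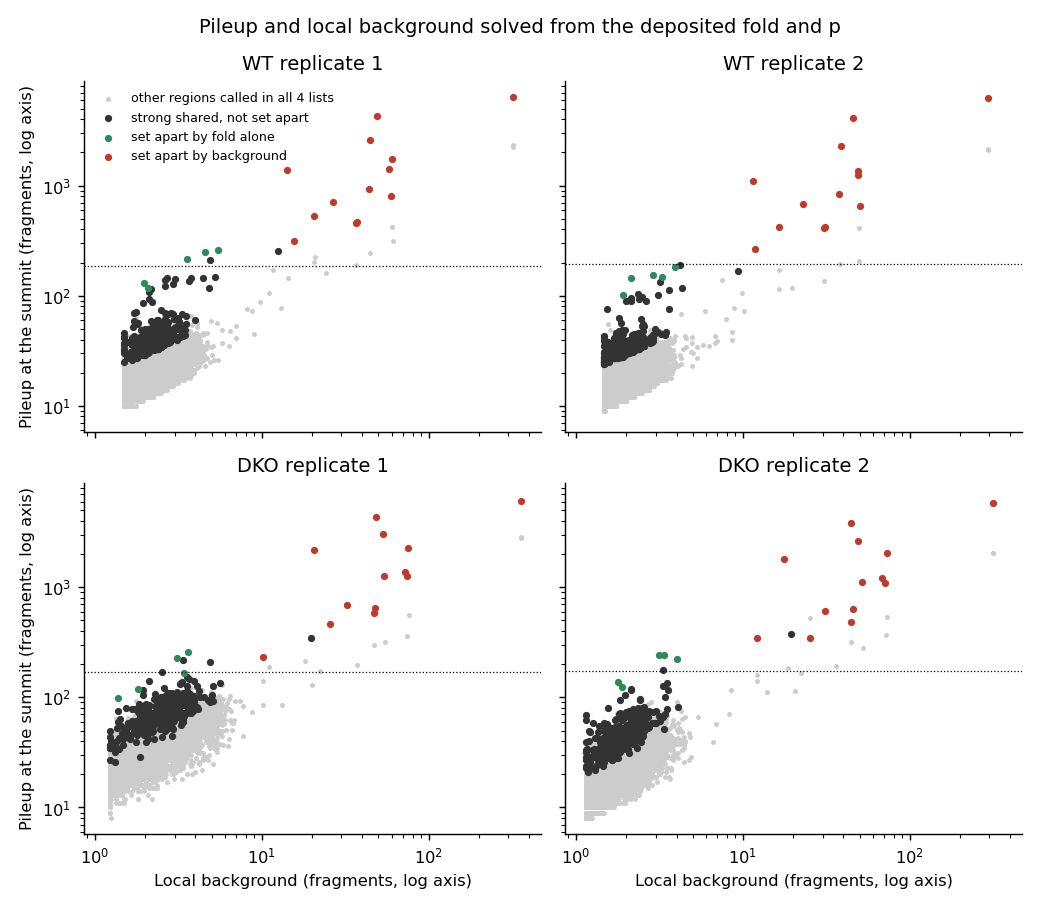
Pileup at the summit (y axis, fragments, log) against local background (x axis, fragments, log) in each library; grey points are the 7616 other regions found in all 4 lists, black points the 315 strong shared regions not set apart, green points the 5 set apart by fold alone and red points the 13 set apart by background. The dotted line is 2 times the narrowest peak of the list; all red points lie above it in each library.

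The single most enriched region was chr6:103599106-103599286, 181 bp wide. Its folds were 90.9 and 87.5 in the WT libraries and 101.1 and 98.0 in the DKO libraries, and its pileups 1380, 1097, 2163 and 1820 fragments. Each list held 1 peak of 179 to 181 bp there, with the summit on base 103599212. The second was chr12:3109868-3110114, with folds of 86.0, 87.1, 87.8 and 85.1 and pileups of 4284, 4086, 4335 and 3852. The third was chr9:35112802-35113171, with folds of 57.6, 58.4, 56.2 and 52.4 and pileups of 2617, 2303, 3026 and 2618. At all 3 the edges of the peak agreed closely between libraries. There 96.4% to 98.9% of the region lay in all 4 peaks, against a median of 59.6% in the regions not set apart. Close edges were not confined to the regions set apart. The share was 97.8% at chr4:70039156-70039289 and 96.5% at chr6:3151427-3151567, which were not set apart. It was 33.2% at chr2:181747547-181747959, which was set apart.

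The largest pileup of all was at chr2:98506401-98507486, the widest region. Its pileups in the WT libraries were 6384 and 6192 fragments, and in the DKO libraries 6146 and 5845. The local background there was 321, 295, 355 and 316 fragments, at least 148 times the median of the list. Its folds were 19.8, 21.0, 17.3 and 18.4, below the limits of the top 0.1%, which were 31.6, 32.8, 29.9 and 31.4, and it was set apart by its background alone.

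The start of chromosome 9 held a cluster of such regions. Between 3000313 and 3036109, a stretch of 35.8 kb, lay 9 strong shared regions, of which 8 had the high background. The pileups of these 8 ran from 265 fragments at chr9:3032407-3032527 in WT replicate 2 to 2279 at chr9:3023444-3023621 in DKO replicate 1. The ninth, chr9:3035684-3036109, had a background of 4.67 to 11.95 times the list median and so missed the limit in 1 list, WT replicate 2. The folds of these 9 regions were modest, from 10.7 to 29.8. Extended to position 3038249, the stretch held 22 regions in all, 18 of them in every list. A further high-background region was chr15:74917074-74917461, with pileups of 533, 424, 235 and 347 fragments.

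A smaller set of 5 regions was set apart by fold alone. It comprised chr2:181747547-181747959, chr2:5300278-5300423, chr3:5860342-5860792, chr18:68851720-68851882 and chr9:123371023-123371304, with lowest folds of 42.2, 39.5, 36.9, 35.5 and 34.9. Their backgrounds were 0.76 to 2.61 times the list median and their pileups 99 to 262 fragments, so they lacked the high background. The first of them was the last autosomal call on chromosome 2 in any list. Further strong calls lay just before it, at chr2:181652125-181652246, chr2:181652334-181652457 and chr2:181665092-181665207, each under 125 bp wide. The first pair of these was 0.21 kb apart, the closest pair of all 333 regions. The last call on chromosome 1, chr1:197067666-197068169, was also a strong shared region, with folds of 27.5, 19.9, 21.5 and 21.3. Of the 38 first and last autosomal regions in the union, 2 were strong shared regions.

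Within each list the 18 regions set apart stood differently to the rest. In WT replicates 1 and 2 their median fold was 27.1 and 27.9, against 12.5 and 11.2 for the 315 others. In DKO replicates 1 and 2 it was 26.3 and 27.2, against 20.8 and 15.4. The lowest of the 4 folds lay in a DKO list for 9 of the 18 set apart and for 16 of the 315 others. Since the fold took part in choosing both sets, this is a description. The median spread of the 4 summits was 3.5 bp in the 18 and 16 bp in the 315.

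Among the 315 regions not set apart, chr4:70039156-70039289 and chr6:3151427-3151567 had the highest values of the lowest of the 4 folds. The first, 134 bp wide, had folds of 34.3 and 31.1 in the WT libraries and 50.6 and 41.1 in the DKO libraries. Its pileups of 220 and 176 fragments in DKO replicates 1 and 2 passed the bounds of 170 and 172, but not those in the WT lists. The second, 141 bp wide, had folds of 36.2, 30.98, 40.0 and 31.7. It started 18.5 kb after the first call on chromosome 6, against 11.6 kb on chromosome 12 for chr12:3109868-3110114, which was set apart. Whether either region is a repeat artefact was not tested. Other regions not set apart had higher folds within the WT lists, up to 39.8 in WT replicate 1, at chr19:45724563-45724725, and 36.8 in WT replicate 2, at chr16:57391518-57391791. The background of the first pair was 0.957 to 2.03 times the median of the list, and the 4 summits of each lay within 10 bp. Of the 315, 37 were narrower than 200 bp, a limit chosen after the widths were seen. Their median pileups of 49, 36, 62 and 44 fragments lay near the 40, 34, 74 and 44 of the 278 wider ones. Leaving out the 18 set apart, an alternative chosen after the values were seen, left each pair's median summit distance as it was and gave a median width of 324 bp.

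Strong shared regions were spread over all 19 autosomes and mostly lay far from each other. The median distance from one to the nearest other was 1971 kb, and for 211 (63.4%) it was over 1 Mb. Only 43 (12.9%) had another within 100 kb and 11 within 10 kb. Of these 11, 9 were the cluster at the start of chromosome 9 and 2 were the pair near the end of chromosome 2. The most isolated one was 48355 kb from the next. Weaker sites, which were far more numerous, lay nearer. Such distances shrink as more regions are counted, and the spacing that the counts alone would give was not worked out. The nearest region in all 4 lists lay at a median of 45.3 kb, against 36.0 kb for the other shared regions, and the nearest region of any kind at 10.98 kb, against 7.03 kb. A strong shared region had a median of 3 regions of any list within 50 kb and the others 4, and 30 (9.01%) had none, against 5.03% of the others. The densest neighbourhood was that of a region on chromosome 8 starting at 19953208, with 45 regions within 50 kb.

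**Figure D4:**
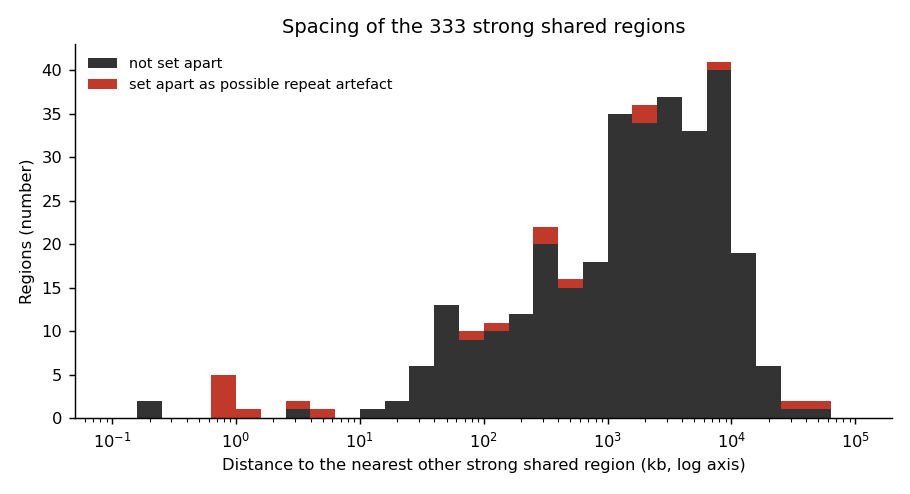
Number of strong shared regions (y axis) by the distance to the nearest other one (x axis, kb, log axis), with the 18 regions set apart in red. The median is 1971 kb, and the few under 10 kb are the chromosome 9 cluster and 1 pair on chromosome 2.

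The share of strong regions varied between chromosomes. The counts were small, from 8 on chromosome 19 to 30 on chromosome 2, and the variation was not tested. Chromosome 16 had the highest share, 18 of 255 regions found in all 4 lists (7.06%), and chromosome 17 the lowest, 10 of 404 (2.48%), around 4.19% for all autosomes. Chromosomes 6, 13 and 9 had 5.63% each and chromosome 14 had 5.62%. On chromosome 9, 10 of the 25 strong regions were set apart, and without these the share was 3.38%. None of the 18 on chromosome 16 was set apart. They were spread over the chromosome from 4475104 to 87354584 and ranged in lowest fold from 10.03 to 30.5, at chr16:57391518-57391791. Neighbouring genes were not analysed here, because no annotation of mm9, the build of the files, was used.

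**Figure D5:**
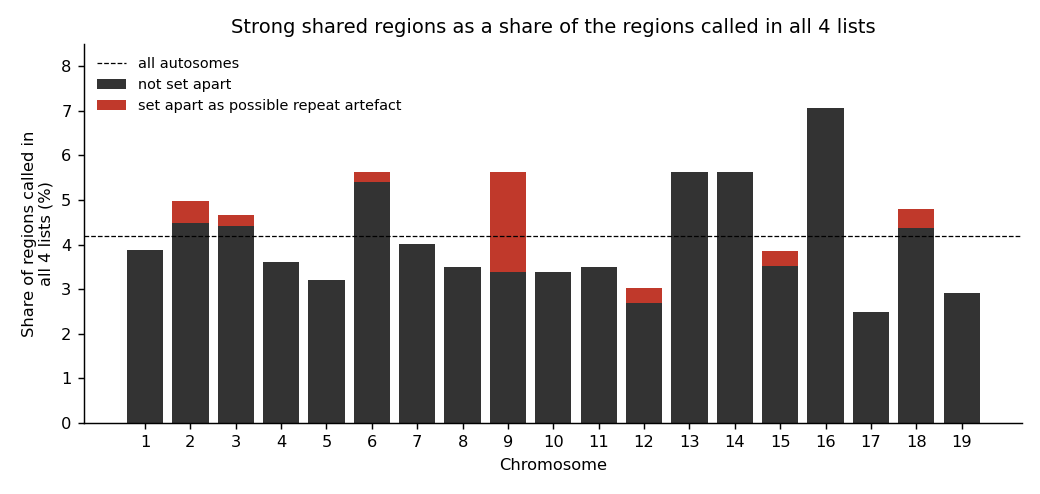
Strong shared regions as a percentage of the regions found in all 4 lists (y axis) on each autosome (x axis), with the part set apart as possible repeat artefacts in red and the share over all autosomes, 4.19%, as a dashed line. Chromosome 16 stands highest at 7.06%, and most of the red part is on chromosome 9.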

How the data were processed

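DNase-seq peak lists of 2 WT and 2 DKO libraries were used, grouped by sample title. Each list was deposited per library. The submitters' processing notes name the build mm9 and the tools FastQC, Bowtie2 2.2.5 and MACS2 2.1.1. No settings, control library or duplicate handling is given in the sources used here. For each peak the authors deposited a fold enrichment (a ratio), −log10 p and −log10 q, and a score, which equals the −log10 q times 10. Positions, deposited from 0, are given from 1.

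Members were found as stated in the report; they and the lists named here were chosen with earlier results of these data known. Where a list had several peaks in a region, the peak of highest fold gave its fold and summit. MACS2 adds 1 to pileup and background before it takes their ratio, and takes p from the Poisson tail. Solving these for pileup and background gave whole pileups, to within 0.02, at 100% of peaks in each list. The merging, the rule and the solution were tested on simulated data. The simulated backgrounds did not reach those of most regions set apart by background. Each simulated region held at most 1 peak per list. Spacing was measured between region centres. Median peak widths per library were compared by an exact two-sided permutation test. The like test planned for local background and pileup is not reported, since both are solved from the fold that chose the regions. Regions named are the 10 of highest lowest fold, the 3 nearest the threshold on each side, the 5 widest and narrowest, the 3 of largest summit spread, the groups within 10 kb and those set apart; the first and last calls, the chromosome 2 end, chromosome 16 and single regions on chromosome 8 were picked with their values known. Alternatives covered the fold minimum, −log10 q of at least 10, merging within 500 bp, overlap of 50% of the narrower peak, 1 peak per list, lists of 11073 peaks and leaving out each library. Promoter shares, gene lists, cell type markers and motifs needed an mm9 genome and annotation, which were not used here; the label CD8+ T cell was therefore not checked against markers, nor the deletion of Tcf1 and Lef1 at their loci. Python 3.11.15, pandas 2.3.3, numpy 2.4.6, scipy 1.17.1 and matplotlib 3.10.9 were used.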

Additional observations from a re-analysis of the deposited data

How the results depend on the processing

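The count of 333 regions moved with the fold minimum, to 1460 at a fold of 8, 92 at 12, 37 at 15 and 24 at 20, and leaving out 1 library gave 337 to 1316, the highest without WT replicate 2. A −log10 q of at least 10, the other merging rules, 1 peak per list and equal list lengths gave 327 to 333. At fold minimums of 8, 12, 15 and 20 the median width was 340, 272, 247 and 214 bp and the mean pair median of the summit distance 10.2, 5.33, 3.17 and 1.92 bp, against 319 and 7.67 bp. The median distance to the next region was then 263.0, 7078, 28384 and 30237 kb, against 1971 kb. The cause of these shifts was not tested. Distances between regions grow as fewer regions are kept, but the spacing that the counts alone would give was not worked out. Leaving out 1 library gave widths of 289 to 308 bp, summit distances of 7.33 to 8.33 bp and spacings of 332 to 1903 kb; the spacing was 332 kb without WT replicate 2 and 1157 kb without WT replicate 1. The difference in peak width between DKO and WT, 37 bp, turned to -7 and -19 bp at fold minimums of 15 and 20, and stayed between 22 and 57 bp without 1 library. The difference in median background between DKO and WT, 0.047, which is a description because each fold minimum selects on the fold it is solved from, turned to -0.041, -0.44 and -0.13 at fold minimums of 12, 15 and 20, and ranged from -0.29 to 0.35 without 1 library. Possible repeat artefacts numbered 18, 11 at a fold minimum of 20, 13 at a −log10 q of at least 10, and 18 to 25 without 1 library. No paired analysis was possible because the counts and distances come from no test and the replicate numbers of WT and DKO are not said to mark shared animals or days. The promoter share was not run. Total reads are unknown, so no counting limit could be given.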
